A study of Mus musculus with 9 samples.

Results

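In trunk EGFP+ cells of mouse embryos at E12.5, 72 probes of 71 named genes stood above every other sorted population, and many of them belong to the neurons and glia of the peripheral nervous system. They were selected on these measured values: the lowest of the 3 Tp arrays exceeded the highest of the other 6 arrays by at least 1 on the log2 scale. The candidates were the 306 probes with a gene name among 347 that the study had picked as varying among 8 of these arrays, out of 23473 probes in all. Of the named probes, 77 met this condition. Chga, Rgs4, Fabp7, Ednrb and Foxd3 met it but were left out by name, which gave the 72. The rule leaves out Hox genes too, but none of them met the condition.

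Sorted cells came from P0-Cre/Floxed-EGFP double transgenic embryos, whose mice of C57/BL6J origin had been crossed to ICR. Cre was driven by the P0 promoter and removed a cassette ahead of EGFP, so that EGFP+ cells are those with past or present P0-Cre activity. By the study's account a very minor share of the label leaks into notochord, which is mesoderm. The groups were trunk EGFP+ cells (Tp, n = 3), trunk EGFP- cells (Tn, n = 2), craniofacial EGFP+ cells (Cp, n = 2) and craniofacial EGFP- cells (Cn, n = 2), all of the same genotype and age, with the heart fields removed from the trunk. RNA of each sample was hybridised to a 3D-Gene array with 1 colour. Values below are log2 of the deposited processed intensity, scaled on each array to a median near 25 units, and a difference of 1 is a doubling.

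Trunk neural crest cells leave the dorsal neural tube and form sensory neurons of the dorsal root ganglia, sympathetic neurons, chromaffin cells of the adrenal medulla, Schwann cells, satellite glia and melanocytes. Craniofacial crest also makes neurons and glia of cranial ganglia, and in addition bone, cartilage and connective tissue of the face. Sensory neurons are known by Isl1 and Tlx3, sympathetic neurons by Th, and glia of peripheral nerves by Lgi4. In RNA of sorted populations such as these, fewer cells of a type and less RNA per cell cannot be told apart.

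A probe counted as above background where its spot exceeded the blank spots by over 2 SD of them (the blank limit), which held for 72.8% to 90.2% of probes per array, and the median spot was 1.81 times the blank mean on Tp3 and 2.28 to 3.21 times on the others. All 72 members passed this limit on the 3 Tp arrays, and 59 were on all 9. Markers of other cells were summed to describe the groups. As the study picked these probes for varying among these arrays, the sums are no independent check of the labels. Summed over the named probes of the erythroid list, the level was 1759 to 2670 units in Tp, against 100046 to 122387 in Tn, 952 to 1698 in Cp and 104173 to 136455 in Cn. The myeloid list summed to 104 to 129 units in Tp and 1041 to 1297 in Tn, and the skeletal muscle list to 259 to 385 in Tp and 3429 to 4178 in Tn. The forebrain and retina list summed to 4182 to 4368 units in Cn and to at most 582 in any other array. No named probe of the melanocyte list was among the candidates, and EGFP, Sox10 and Dbh were not analysed here.

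The condition alone was met by 204 of the 21854 probes tested, or 0.933%, and the reverse, with Tp below all other arrays by at least 1, by 48 or 0.22%. As the rule uses these values, they describe the members and test nothing. The gap between the lowest Tp array and the highest other array had a median of 1.87 over the members and ran to 3.86. It was at least 2 for 32 members and at least 3 for 7. The group next below Tp was Tn for 32 members, Cp for 24 and Cn for 16, whereas the lowest group was Cn for 40, Cp for 28 and Tn for 4. The map of all members by array shows the 3 Tp columns set apart from the rest.

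**Figure D1:**
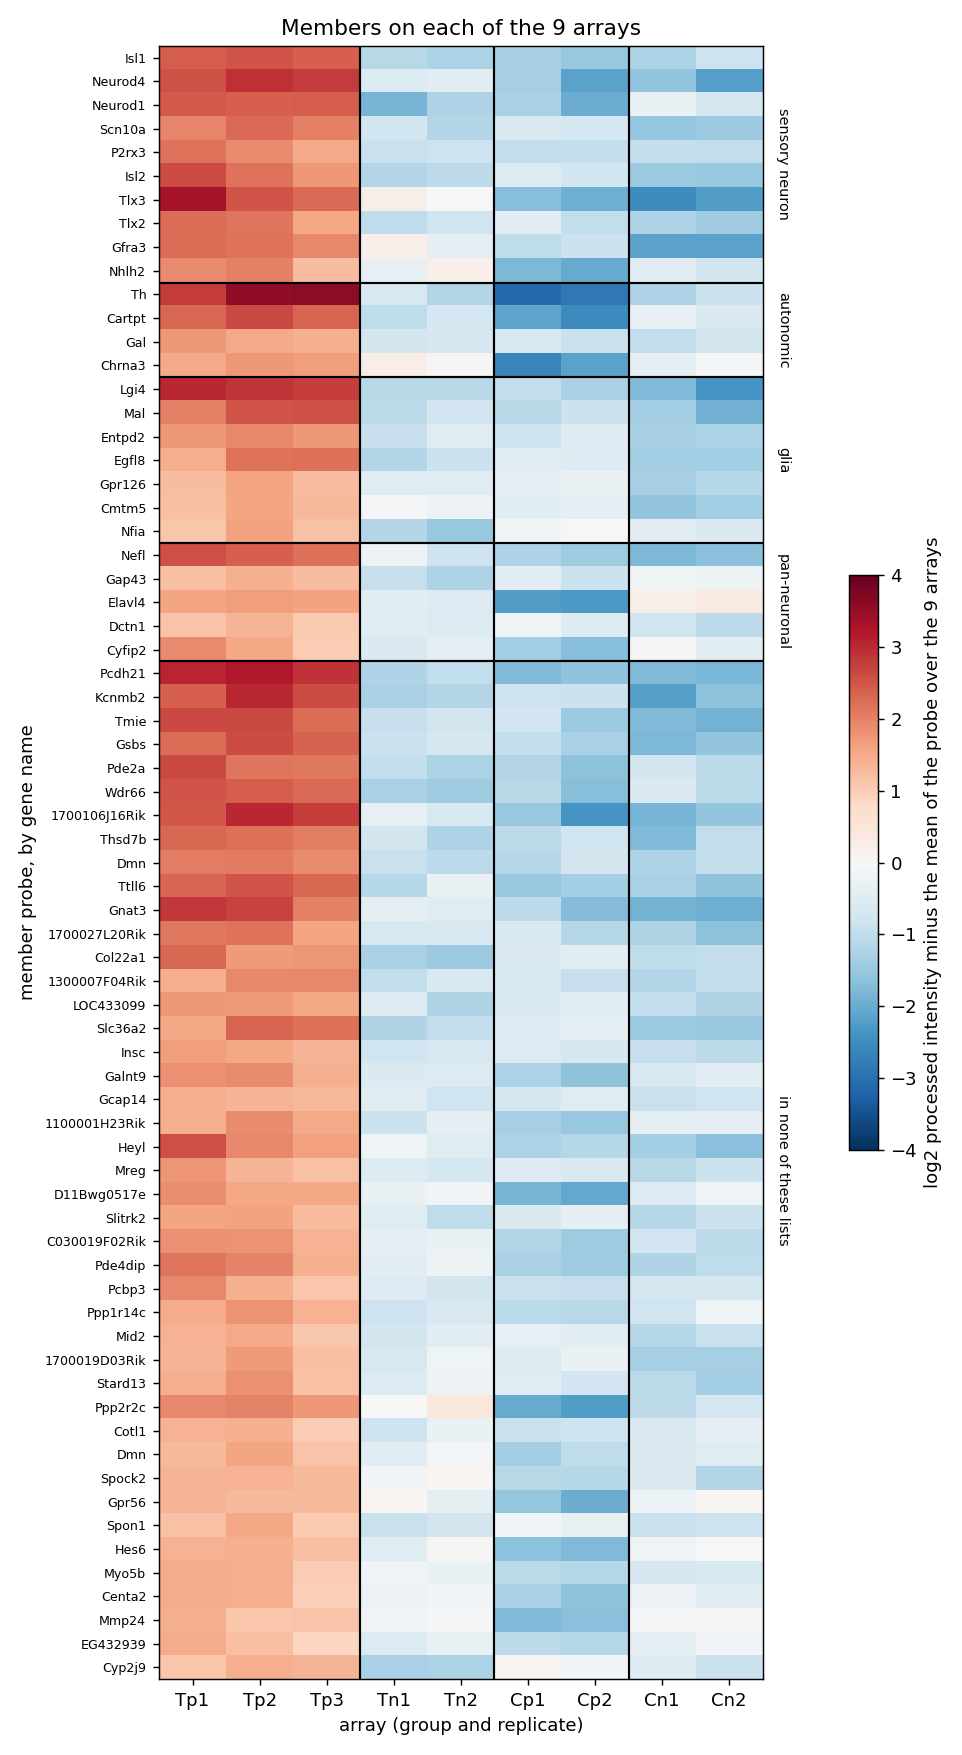
Log2 processed intensity of 69 of the 72 member probes (rows, by gene list and falling gap) on the 9 arrays (columns), each row relative to its own mean over the arrays. The Tp columns are red in every row, and the lowest values of a row lie by group mean in Cn for 37 of those drawn and in Cp for 28.

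The widest gap belonged to Pcdh21 (now Cdhr1), a protocadherin known from photoreceptors. It measured 8.39, 8.54 and 8.22 on the 3 Tp arrays, against 4.13 and 4.36 in Tn, 3.59 and 3.72 in Cp, and 3.58 and 3.52 in Cn. Its highest array outside Tp, Tn2, was 3.86 below the lowest Tp array. Kcnmb2, an accessory subunit of large conductance potassium channels, gave 8.06, 8.7 and 8.29 in Tp, against 4.37 and 4.51 in Tn, 4.86 and 4.82 in Cp, and 3.47 and 4.03 in Cn. Here Cp, not Tn, came next. Tmie, a transmembrane protein that hair cells of the inner ear need for hearing, had 7.07, 7.06 and 6.65 in Tp, against 3.51 and 3.70 in Tn, 3.69 and 2.95 in Cp, and 2.67 and 2.55 in Cn. Tn and Cp overlapped for Tmie. Wdr66, a WD repeat protein, stood at 7.46, 7.37 and 7.21 in Tp, against 3.63 and 3.53 in Tn, 3.82 and 3.23 in Cp, and 4.36 and 3.87 in Cn, with Cn on top of the other groups. 1700106J16Rik (now Ccdc182), a coiled-coil protein, had 5.79, 6.31 and 6.07 in Tp, against 2.96 and 2.65 in Tn, 1.78 and 0.93 in Cp, and 1.45 and 1.71 in Cn, where 1 of the 2 arrays was above the blank limit. None of these 5 genes was on a cell type list used here.

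**Figure D2:**
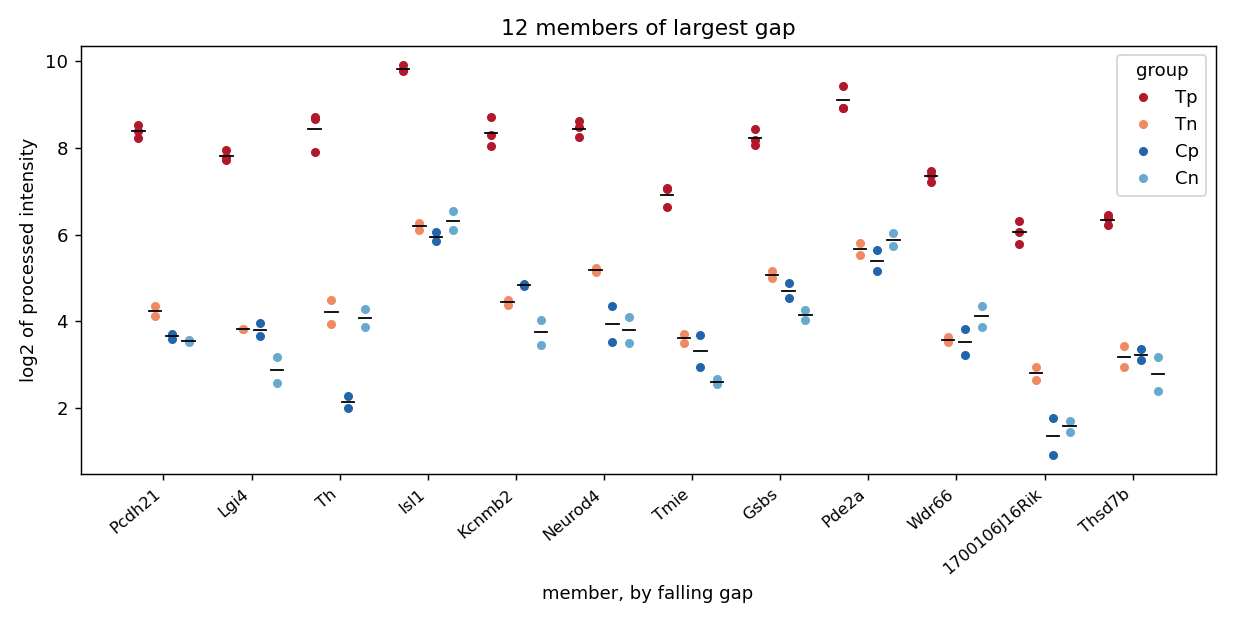
Log2 processed intensity of the 12 members of largest gap among the 69 drawn, 1 point per array and a line at the group mean, for Tp, Tn, Cp and Cn. Every Tp point lies at least 2.79 above the highest point of any other group for the same gene, and the order of the other 3 groups differs among genes.

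The sensory neuron list held the most members. On the list for peripheral glia 11 named genes met the condition too, before genes were left out by name. Of the 31 genes on the sensory list, 11 were named among the candidates, and all 11 of these were members. They include Isl1, Neurod4, Neurod1, Scn10a, P2rx3, Isl2, Tlx3, Tlx2, Gfra3 and Nhlh2, and their median gap was 2.33. Since the study chose its probes on these arrays, that count is no independent evidence. Candidates were likewise only 7 of the 24 genes on the autonomic list and 13 of the 26 on the glial list. The other genes on these lists were not examined. Isl1, a LIM homeodomain factor of sensory and sympathetic neurons, measured 9.80, 9.90 and 9.77 in Tp, against 6.28 and 6.11 in Tn, 6.05 and 5.86 in Cp, and 6.10 and 6.55 in Cn. Tn and Cn overlapped, and Cp lay just below both. Gfra3, the receptor for artemin, had 7.66, 7.61 and 7.38 in Tp, against 5.64 and 5.05 in Tn, 4.44 and 4.59 in Cp, and 3.32 and 3.32 in Cn. The 3 lower groups of Gfra3 did not overlap and ran from Tn through Cp to Cn. Gfra1, the GDNF receptor, also on the neurotrophin and GDNF list, was not a member, with a gap of 0.41.

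Channels of pain-sensing neurons were among the members. Scn10a, the sodium channel of nociceptors, measured 5.39, 5.69 and 5.46 in Tp, against 2.69 and 2.26 in Tn, 2.84 and 2.72 in Cp, and 1.88 and 1.99 in Cn, where 1 of the arrays was above the blank limit. P2rx3, an ATP-gated channel of nociceptors, had 7.73, 7.45 and 7.08 in Tp, against 4.66 and 4.75 in Tn, 4.59 and 4.61 in Cp, and 4.62 and 4.56 in Cn. The 6 values of P2rx3 outside Tp spanned less than the 3 within it. Tlx3, a homeobox gene of sensory neurons, gave 9.83, 9.03 and 8.78 in Tp, against 6.74 and 6.53 in Tn, 4.8 and 4.54 in Cp, and 4.0 and 4.28 in Cn. On the deposited values Tlx3 thus fell into 4 levels, one for each group, without overlap. Isl2 and Tlx2, homeobox genes related to Isl1 and Tlx3, had gaps of 2.28 and 2.01. Of 8 named genes in the list of ion channels and transmitter receptors, 4 were members, and the 4 others (Gabra4, Gria1, Cacng2 and Chrna1) had a group other than Tp on top.

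Of 10 named genes of the Notch and neurogenic list, 5 were members, all of them transcription factors of the basic helix-loop-helix class. Neurod4 measured 8.25, 8.62 and 8.47 in Tp, against 5.13 and 5.24 in Tn, 4.36 and 3.54 in Cp, and 4.11 and 3.50 in Cn. Neurod1, which also drives neuronal differentiation, had 11.70, 11.63 and 11.65 in Tp, against 7.38 and 8.0 in Tn, 7.93 and 7.25 in Cp, and 8.97 and 8.57 in Cn. The second group was Tn for Neurod4 but Cn for Neurod1. Heyl, an effector of Notch signalling, gave 7.36, 6.70 and 6.42 in Tp, against 4.61 and 4.31 in Tn, 3.51 and 3.66 in Cp, and 3.43 and 3.13 in Cn. Hes6, an antagonist of Hes1, stood at 12.38, 12.42 and 12.21 in Tp, against 10.50 and 11.05 in Tn, 9.34 and 9.22 in Cp, and 10.84 and 10.98 in Cn. Tn and Cn overlapped for Hes6, and Cp lay below both. Insm1, Dll3, Olig2, Dner and Atoh7 were not members, and for the last 4 another group had a higher mean than Tp.

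Since members of 1 role stood high together, their start sites are shown: for the sensory, autonomic, glial and neurogenic lists, the member of largest gap with a single window in the promoter table that no earlier list had taken. Each run covers 250 bases before to 50 after the start (RefSeq, GRCm38.p6, all on the minus strand), with E boxes in capitals. The E box CANNTG, read on both strands, is the word that basic helix-loop-helix factors bind.
Isl1, chr13:116309639-116309938: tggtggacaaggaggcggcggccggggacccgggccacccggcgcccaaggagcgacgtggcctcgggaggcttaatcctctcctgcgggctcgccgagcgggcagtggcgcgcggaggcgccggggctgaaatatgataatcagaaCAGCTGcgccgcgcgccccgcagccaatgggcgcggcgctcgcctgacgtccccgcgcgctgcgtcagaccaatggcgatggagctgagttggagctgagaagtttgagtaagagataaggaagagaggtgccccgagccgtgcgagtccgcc
Th, chr7:142899946-142900245: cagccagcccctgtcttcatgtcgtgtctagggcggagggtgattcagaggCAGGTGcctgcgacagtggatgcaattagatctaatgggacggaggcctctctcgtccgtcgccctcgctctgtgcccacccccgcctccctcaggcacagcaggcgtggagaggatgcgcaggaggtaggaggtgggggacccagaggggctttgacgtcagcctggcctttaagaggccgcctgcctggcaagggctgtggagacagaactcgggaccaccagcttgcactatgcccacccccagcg
Mal, chr2:127656646-127656945: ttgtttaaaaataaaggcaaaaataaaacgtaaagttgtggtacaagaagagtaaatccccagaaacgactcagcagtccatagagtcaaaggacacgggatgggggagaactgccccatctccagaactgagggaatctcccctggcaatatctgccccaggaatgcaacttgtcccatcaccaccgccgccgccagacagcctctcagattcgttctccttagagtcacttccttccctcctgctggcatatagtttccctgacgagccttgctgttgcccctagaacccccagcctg
Neurod1, chr2:79456587-79456886: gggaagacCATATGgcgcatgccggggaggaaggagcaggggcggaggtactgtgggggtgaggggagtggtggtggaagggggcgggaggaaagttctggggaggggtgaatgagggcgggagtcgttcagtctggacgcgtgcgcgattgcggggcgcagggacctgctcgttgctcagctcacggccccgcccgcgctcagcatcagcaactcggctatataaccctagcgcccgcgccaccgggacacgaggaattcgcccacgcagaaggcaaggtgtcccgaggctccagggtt

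The windows of Isl1, Th and Neurod1 each held 1 E box, that of Isl1 in the form CAGCTG, and the window of Mal held none. A match is no proof of binding, and none in this window says nothing of the rest of the gene. Of 69 member genes with a RefSeq symbol, 50 had 75 windows in the table. An E box occurred in 73.3% of these windows and in 72.3% of all 32851. For its forms CAGATG and CAGCTG the shares were 18.7% and 22.7% of members' windows, against 17.2% and 16.3% of all. The Sox word ACAAAG was in 17.3% against 18.7%, the homeodomain word TAATTA in 5.33% against 5.29%, and the palindromic site of paired homeodomains in 0 against 0.487%. Several windows of 1 gene can overlap, and these shares were not tested.

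Autonomic genes were fewer, and their 3 other groups spread more widely. Of 7 named genes of the autonomic and chromaffin list, 5 were members, with a median gap of 2.07. Chga of this list also met the condition but was left out by name. Th, tyrosine hydroxylase, the rate-limiting enzyme of catecholamine synthesis, measured 7.91, 8.68 and 8.7 in Tp, against 4.49 and 3.95 in Tn, 2.02 and 2.28 in Cp, and 3.88 and 4.28 in Cn. Cp lay below both EGFP- groups. Cartpt, a precursor of neuropeptides, had 8.45, 8.79 and 8.49 in Tp, against 5.14 and 5.47 in Tn, 4.04 and 3.62 in Cp, and 5.86 and 5.60 in Cn, again with Cp lowest. Gal, the neuropeptide galanin, gave 8.38, 8.17 and 8.07 in Tp, against 5.91 and 5.98 in Tn, 6.0 and 5.76 in Cp, and 5.67 and 5.93 in Cn, where the 3 lower groups overlapped. Chrna3, a subunit of the nicotinic receptor of autonomic ganglia, had 5.10, 5.32 and 5.26 in Tp, against 3.83 and 3.62 in Tn, 0.93 and 1.43 in Cp, and 3.17 and 3.52 in Cn. Neither Cp array was above the blank limit for Chrna3. Insm1, a zinc finger factor of endocrine and neuronal precursors, had a gap of 0.27 and was not a member.

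Of 13 named genes of the list for Schwann cells, satellite glia and their precursors, 8 were members, with a median gap of 2.09. Ednrb, Foxd3 and Fabp7 of this list also met the condition but were left out by name. Lgi4, a secreted protein that Schwann cells need for myelination, measured 7.95, 7.80 and 7.72 in Tp, against 3.82 and 3.82 in Tn, 3.97 and 3.66 in Cp, and 3.18 and 2.59 in Cn. Mal, a proteolipid of myelin, had 4.76, 5.26 and 5.31 in Tp, against 1.66 and 1.98 in Tn, 1.66 and 1.90 in Cp, and 1.40 and 0.83 in Cn. For both, Tn and Cp overlapped and Cn lay below them. Entpd2, an ectonucleotidase of peripheral glia, stood at 5.26, 5.44 and 5.26 in Tp, against 2.61 and 3.04 in Tn, 2.71 and 3.01 in Cp, and 2.20 and 2.27 in Cn. Nfia, a factor of glial development, had 3.45, 3.93 and 3.49 in Tp, against 1.15 and 0.81 in Tn, 2.18 and 2.31 in Cp, and 1.88 and 1.76 in Cn. Neither Tn array was above the blank limit for Nfia. Of the 2 Cn arrays, 1 was above it for each of Mal, Entpd2 and Nfia. Egfl8, Gpr126 (now Adgrg6, which Schwann cells need to start myelination) and Cmtm5 had gaps of 1.95, 1.49 and 1.25.

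General neuronal genes were mostly not members: 5 of 25 named probes of that list were, although the group mean was highest in Tp for 19. Nefl, the light neurofilament subunit, measured 10.58, 10.41 and 10.20 in Tp, against 7.79 and 7.19 in Tn, 6.77 and 6.57 in Cp, and 6.20 and 6.34 in Cn. Gap43, a protein of growing axons, had 11.44, 11.67 and 11.48 in Tp, against 9.31 and 9.02 in Tn, 9.80 and 9.37 in Cp, and 10.07 and 10.05 in Cn. Among the other groups Nefl was highest in Tn and Gap43 in Cn. Dctn1, a subunit of the dynactin complex of axonal transport, gave 8.03, 8.26 and 7.94 in Tp, against 6.42 and 6.34 in Tn, 6.77 and 6.40 in Cp, and 6.10 and 5.84 in Cn. Elavl4 (HuD), an RNA-binding protein of neurons, had 2 probes. The member probe stood at 10.14, 10.25 and 10.18 in Tp, against 8.15 and 8.07 in Tn, 6.34 and 6.28 in Cp, and 8.80 and 8.89 in Cn. The second had 9.43, 9.81 and 9.34 in Tp, against 7.82 and 8.03 in Tn, 6.15 and 5.66 in Cp, and 8.55 and 8.05 in Cn, and with a gap of 0.80 fell short of the threshold. Both gave Tp the highest and Cp the lowest level. Among the 20 that were not members, Cntnap2, a cell adhesion protein of neurons, had its highest array 3.95 above the lowest Tp array.

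Of 12 named genes in the list of protein phosphatase, phosphodiesterase and G protein subunits, 6 were members. Every gene of this list was among the study's named genes. Rgs4, left out by name, Dusp26, Gng2, Gng3, Ppp2r2b and Ppp2r2a were not members. Gsbs (now Ppp1r17), a substrate of cGMP-dependent kinase that inhibits protein phosphatases, measured 8.07, 8.45 and 8.19 in Tp, against 5.0 and 5.16 in Tn, 4.88 and 4.53 in Cp, and 4.04 and 4.27 in Cn. Pde2a, a cGMP-stimulated phosphodiesterase, had 9.44, 8.93 and 8.93 in Tp, against 5.81 and 5.53 in Tn, 5.65 and 5.16 in Cp, and 6.04 and 5.74 in Cn. Both genes act on cyclic nucleotide signalling. Gnat3, the G protein subunit of taste cells, gave 6.05, 5.92 and 5.24 in Tp, against 2.82 and 2.74 in Tn, 2.17 and 1.48 in Cp, and 1.32 and 1.26 in Cn. Pde4dip, which anchors phosphodiesterase at the Golgi and centrosome, stood at 6.68, 6.55 and 5.97 in Tp, against 4.14 and 4.36 in Tn, 3.25 and 3.14 in Cp, and 3.36 and 3.54 in Cn. For Gnat3 and Pde4dip, Tn was the second group. Gnat3 was above the blank limit on 1 of the 2 arrays in Cp and on 1 of 2 in Cn. The remaining members of this list were the phosphatase regulators Ppp1r14c and Ppp2r2c, with gaps of 1.56 and 1.32.

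Members outside the lists included genes of the cytoskeleton (Ttll6, Cotl1, Stard13, Myo5b, Mid2), of the matrix and cell surface (Col22a1, Spon1, Spock2, Slitrk2) and of membrane transport (Slc36a2), and Insc, which orients the mitotic spindle, with gaps of 1.15 to 2.58. Dmn (now Synm), the intermediate filament protein synemin, had 2 member probes. The first measured 4.43, 4.48 and 4.29 in Tp, against 1.51 and 1.34 in Tn, 1.27 and 1.66 in Cp, and 1.15 and 1.41 in Cn. The second had 3.93, 4.21 and 3.79 in Tp, against 2.17 and 2.56 in Tn, 1.24 and 1.63 in Cp, and 2.07 and 2.15 in Cn. They agreed in the height of Tp, whereas Tn and Cn stood above Cp on the second probe alone. The first probe was above the blank limit on 1 of the 2 Cn arrays. Col22a1, a collagen of tissue junctions, gave 7.16, 6.57 and 6.66 in Tp, against 3.59 and 3.42 in Tn, 4.30 and 4.44 in Cp, and 3.87 and 3.91 in Cn.

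Close to the threshold of 1, Centa2 (now Adap2) had a gap of 1.09, Mmp24 and Nhlh2 of 1.04 each, EG432939 of 1.03 and Cyp2j9 of 1.02. Just outside lay Dusp26 at 0.95, Epb4.1l4a at 0.94 and Camk2b at 0.93. Mmp24, a membrane-bound metalloproteinase of neural tissue, measured 6.67, 6.36 and 6.42 in Tp, against 5.13 and 5.18 in Tn, 3.50 and 3.58 in Cp, and 5.20 and 5.31 in Cn. Dusp26, a dual specificity phosphatase, had 7.82, 7.48 and 7.43 in Tp, against 5.74 and 6.0 in Tn, 3.66 and 3.47 in Cp, and 6.48 and 6.08 in Cn. The member and the gene just outside thus had the same order of groups. Nhlh2, a neurogenic helix-loop-helix factor, gave 6.01, 6.16 and 5.36 in Tp, against 3.81 and 4.32 in Tn, 2.34 and 2.12 in Cp, and 3.68 and 3.35 in Cn. Camk2b, a subunit of calcium/calmodulin-dependent kinase, stood at 5.83, 5.89 and 5.93 in Tp, against 2.65 and 3.12 in Tn, 3.22 and 3.38 in Cp, and 4.90 and 4.8 in Cn. Epb4.1l4a, a protein of the band 4.1 family, had 6.59, 6.64 and 6.70 in Tp, against 5.46 and 5.66 in Tn, 4.02 and 4.20 in Cp, and 5.42 and 5.27 in Cn. Among these genes Cn or Tn came second except for Cyp2j9, a cytochrome P450, which had 5.20, 5.52 and 5.45 in Tp, against 2.80 and 2.82 in Tn, 4.18 and 3.99 in Cp, and 3.58 and 3.22 in Cn. Centa2, a GTPase-activating protein for Arf, measured 5.25, 5.21 and 4.72 in Tp, against 3.52 and 3.63 in Tn, 2.46 and 2.15 in Cp, and 3.53 and 3.32 in Cn. EG432939 (now Gm48957) had 6.24, 5.97 and 5.64 in Tp, against 4.23 and 4.46 in Tn, 3.72 and 3.64 in Cp, and 4.39 and 4.61 in Cn.

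The 3 Tp arrays differed among themselves by a median range of 0.41 per member (0.58 over all tested probes). For no member did this range exceed the gap. Both the study's selection and the rule favour probes with little spread in Tp, so these values do not measure agreement of replicates. Tp3 was the lowest of the 3 arrays for 47 members (65.3%, against 61.5% of all tested probes) and Tp1 for 21 (29.2%, against 28.9%). By gene list the arrays diverged. Tp1 was the lowest for 4 of 5 autonomic and 6 of 8 glial members but for 2 of 11 sensory ones, whereas Tp3 was the lowest for 8 of 11 sensory members, 1 of 5 autonomic and 2 of 8 glial ones. Against the mean of Tp2 and Tp3, Tp1 was 0.78 lower for Th, 0.73 lower for Egfl8 and 0.53 lower for Mal, and 0.92 higher for Tlx3, 0.80 higher for Heyl and 0.66 higher for Isl2. The 3 Tp arrays were scanned on 3 different days, so scan day and sample cannot be told apart, and these differences were not tested. Below, a scan means a day of scanning.

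**Figure D3:**
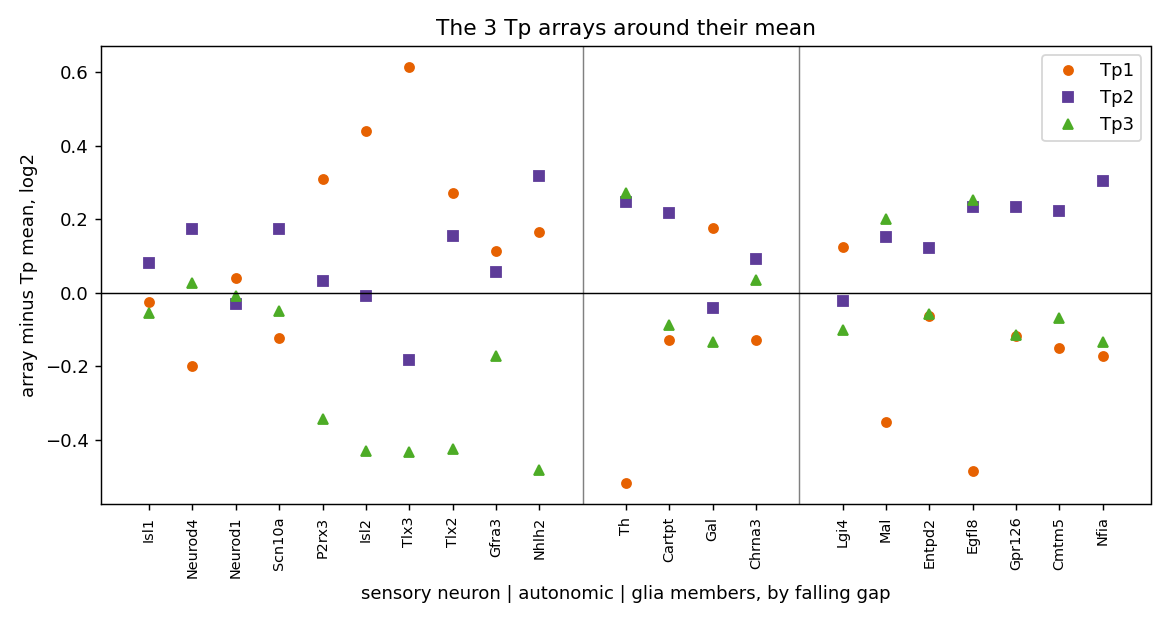
Each Tp array minus the mean of the 3, in log2, for the drawn sensory, autonomic and glial members in order of falling gap within a list. Tp1 is the lowest point for Th, Egfl8 and Mal and the highest for Tlx3 and Isl2.

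The order among Tn, Cp and Cn was not set by the rule, so these groups were compared with limma on all 9 arrays. In Cp over Cn, 13 members were lower and 2 were higher at an adjusted p under 0.05, against 4.36% and 1.4% of the 21854 probes in those directions, and 57 did not pass. The members come from probes that the study chose as varying among these arrays, so their share of calls is not independent evidence. The median difference was 0.27 over the members and 0.10 over all tested probes, and 43 members lay above 0. Members without overlap between the 2 groups numbered 27 lower and 37 higher in Cp, against 18.1% and 29.3% of tested probes. With the blank spots as background (offset 16) the split of calls was 12 lower and 6 higher, and with quantile normalization 15 and 6. Over all tested probes these settings gave 932 lower and 542 higher, and 1075 and 420.

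Members that fell in Cp against Cn were led by Elavl4, Chrna3 and Th. Elavl4 averaged 6.31 ± 0.04 in Cp and 8.84 ± 0.06 in Cn (SD, n = 2 each), 5.78-fold lower (limma log2 difference -2.53, standard error 0.24, adjusted p = 6.8e-05). Chrna3 was not above the blank limit on either Cp array. On the deposited values it was 4.48-fold lower there than in Cn (limma adjusted p = 0.00063). Because its Cp spots did not pass the limit, the size of this difference is uncertain. Chrna3 gave -0.74 with the blank spots as background at offset 16 (adjusted p = 0.0118), and at offset 50 it gave -0.33 and did not pass (adjusted p = 0.0654). Th averaged 2.15 ± 0.19 in Cp and 4.08 ± 0.28 in Cn, a limma difference of -1.93 (standard error 0.34, adjusted p = 0.0051), and without Cp1 its adjusted p was 0.0601. With the blank spots as background (offset 50) Th gave -0.36 and did not pass (adjusted p = 0.592). Cartpt (-1.90), Mmp24 (-1.72), Gpr56 (-1.69), Hes6 (-1.64) and D11Bwg0517e (-1.62) passed too, and so did Cyfip2, Nhlh2, Ppp2r2c, Centa2 and 1100001H23Rik, at -1.06 to -1.29. Of the 13, 6 passed in every fit that left out 1 array: Elavl4, Chrna3, Cartpt, Mmp24, Hes6 and D11Bwg0517e. Fits without 1 Cp or Cn array left 1 array in that group, and in each fewer members and fewer of all tested probes passed.

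In the other direction, Gfra3 rose in Cp by 1.19 (standard error 0.28, adjusted p = 0.0256), with 4.51 ± 0.10 in Cp and 3.32 in both Cn arrays. Cmtm5, a MARVEL domain protein of glia, had 4.89 and 4.94 in Cp, against 3.74 and 3.95 in Cn, and rose by 1.06 (standard error 0.26, adjusted p = 0.0314). Neither passed when any 1 Cp or Cn array was left out, with adjusted p up to 0.164 for Gfra3 and 0.233 for Cmtm5, and Gfra3 did not pass with the blank spots as background (offset 16, 0.63, adjusted p = 0.0627). Kcnmb2 lay between them in size, at 1.1 (standard error 0.30), and did not pass (adjusted p = 0.0583), though it did with the scan as a block (adjusted p = 0.0395). By list, 3 of 5 autonomic members fell in Cp, while all 8 glial members lay above 0 with a median of 0.78 and 1 passed. Of the 11 sensory members, 8 lay above 0, Nhlh2 fell and Gfra3 rose. Within scan 1 and within scan 2 all 15 called members kept their sign. Their Cp and Cn arrays did not overlap, so no other sign was possible. In the same arrays the forebrain and retina list summed to 517.3 to 518.2 units in Cp and 4182 to 4368 in Cn, and the 25 general neuronal probes to 2520 to 3212 in Cp and 12603 to 12739 in Cn. Their part in these differences was not tested.

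**Figure D4:**
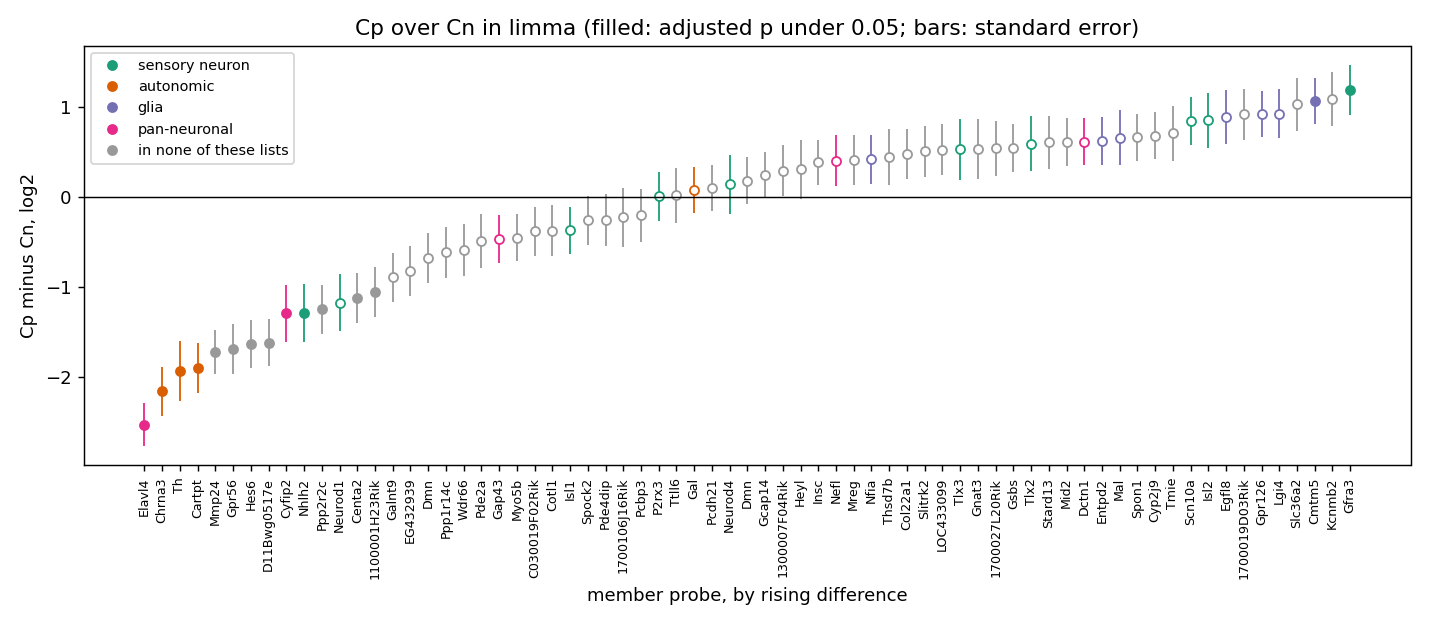
Cp minus Cn in log2 for 69 of the 72 member probes, in rising order, with the standard error of limma as bars, filled where the adjusted p is under 0.05 and coloured by gene list. The 13 filled points on the left hold 3 autonomic members, the 2 on the right are Cmtm5 and Gfra3, and all 7 glial members drawn lie above 0.

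In Tn over Cn, 3 members were higher and 0 lower, against 0.828% and 0.558% of tested probes, with 30 members at an unadjusted p under 0.05, against 10.3% of tested probes. With the blank spots as background (offset 16) 5 were higher and 3 lower, against 204 and 211 of all tested probes. Tlx3 averaged 6.64 ± 0.15 in Tn and 4.14 ± 0.20 in Cn, 5.63-fold higher (limma log2 difference 2.49, standard error 0.34, adjusted p = 0.0029). Gfra3 averaged 5.35 ± 0.42 in Tn and 3.32 in Cn, 4.08-fold higher (standard error 0.28, adjusted p = 0.0027). Both passed with any 1 array left out, whereas Tlx3 did not with the blank spots as background at offset 50 (1.19, adjusted p = 0.0872). The third was Cmtm5, with 5.28 and 5.14 in Tn and a limma difference of 1.36 (adjusted p = 0.0232), which did not pass once any 1 Tn or Cn array was left out (1.25 to 1.46, adjusted p = 0.0875 to 0.222). Gnat3 differed by 1.49 and did not pass (adjusted p = 0.0592), and was above the blank limit on 1 of the 2 Cn arrays. The most negative differences were those of Neurod1 (-1.08, adjusted p = 0.17), Gap43 (-0.89, adjusted p = 0.179) and Nfia (-0.84, adjusted p = 0.232). Neurod1 (-1.2, adjusted p = 0.0255) and Gap43 (-1.03, adjusted p = 0.0161) passed with the blank spots as background at offset 16. Within scan 1 all 3 called members kept their sign, which the lack of overlap between their Tn and Cn arrays made certain. In the same arrays the forebrain and retina list summed to 546 to 582 units in Tn and 4182 to 4368 in Cn, and the general neuronal probes to 7479 to 7634 in Tn and 12603 to 12739 in Cn. The spinal cord and hindbrain list summed to 1063 to 1329 units in Tn and 487 to 682 in Cn, and the muscle list to 3429 to 4178 in Tn and 1759 to 2298 in Cn. Their part in these differences was not tested.

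In Tn over Cp, 14 members were higher and 2 lower, against 3.68% and 0.581% of tested probes. This comparison shares the Cp arrays with Cp over Cn and the Tn arrays with Tn over Cn. On the deposited values Chrna3 was 5.82-fold higher in Tn than in Cp (limma adjusted p = 0.00018), where neither array was above the blank limit. The difference was 0.84 with the blank spots as background at offset 16 (adjusted p = 0.0088), and 0.38 at offset 50, where it did not pass (adjusted p = 0.062). Ppp2r2c, a regulatory subunit of protein phosphatase, had 6.14 and 6.58 in Tn, against 4.15 and 3.94 in Cp, and was 4.98-fold higher (log2 difference 2.32, standard error 0.27, adjusted p = 0.00033). Th had a difference of 2.07 (standard error 0.34, adjusted p = 0.0034), and with the blank spots as background (offset 16) it did not pass, at 0.80 (adjusted p = 0.253). Tlx3 (1.96), Nhlh2 (1.84), Elavl4 (1.80), D11Bwg0517e (1.77), Mmp24 (1.62), Gpr56 (1.62), Hes6 (1.5), Cartpt (1.48), 1700106J16Rik (1.45), Centa2 (1.27) and Spock2 (1.11) passed as well. Set beside Cp over Cn, Elavl4 gave 1.80 in Tn over Cp and -2.53 in Cp over Cn, and Mmp24 gave 1.62 and -1.72, since Cp was the lowest group for each.

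Of the 16 called members, 6 passed in every fit that left out 1 array: Chrna3, Ppp2r2c, Th, Elavl4, D11Bwg0517e and Mmp24. Fits without 1 Tn or Cp array left 1 array in that group, and in each fewer members and fewer of all tested probes passed. The 2 that fell in Tn were Cyp2j9 and Nfia. Cyp2j9 differed by -1.28 (limma standard error 0.26, adjusted p = 0.015). Nfia, above the blank limit on neither Tn array, was 2.4-fold lower there than in Cp on the deposited values (adjusted p = 0.0212). Without Cp1, Cp2 or Tn2 neither passed, although the differences stayed at -1.18 to -1.38 for Cyp2j9 (adjusted p up to 0.138) and -1.09 to -1.33 for Nfia (adjusted p up to 0.198), and Cyp2j9 did not pass without Tn1 either (adjusted p = 0.073). With the blank spots as background (offset 16) Cyp2j9 gave -0.61 (adjusted p = 0.0822) and Nfia -0.42 (adjusted p = 0.0673). Col22a1 came next at -0.86 (adjusted p = 0.146). All 16 kept their sign within scan 1, which the lack of overlap between their Tn and Cp arrays made certain. By list, 3 of 5 autonomic members were higher in Tn than in Cp and all 5 lay above 0, against 2 of 11 sensory members higher and 0 of 8 glial ones. In the same arrays the erythroid list summed to 100046 to 122387 units in Tn and 952 to 1698 in Cp, the muscle list to 3429 to 4178 in Tn and 145 to 170 in Cp, and the myeloid list to 1041 to 1297 in Tn and 81 to 94 in Cp. The spinal cord and hindbrain list summed to 1063 to 1329 units in Tn and 84 to 99 in Cp, and the 25 general neuronal probes to 7479 to 7634 in Tn and 2520 to 3212 in Cp. Their part in these differences was not tested.

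The height of Tp and the calls both depend on how background was taken. On the deposited values all 72 members had no overlap between Tp and the other 6 arrays, as had 5.02% of tested probes. With the blank spots as background (offset 16) and quantile normalization, again all 72 did (6.06% of tested probes), 55 by at least 1, with a median gap of 1.40. With the ring around each spot as background (offset 50), 50 did (2.11%), 13 by at least 1, with a median gap of 0.20. On that scale 0 members passed limma in any of the 3 comparisons (4, 1 and 1 at an unadjusted p under 0.05, against 5.3%, 11.9% and 10.5% of tested probes). Few of all 21854 tested probes passed there either, 3 higher and 32 lower in Cp over Cn. They numbered 19 and 22 in Tn over Cn, and 53 and 23 in Tn over Cp. The logarithms of ring and spot correlated across probes at 0.909 to 0.985 per array, so ring and spot were not separate measures. Pcdh21 had a gap of 3.86, 3.48 and 1.81 on the 3 scales, and Nefl one of 2.41, 2.58 and 2.40. These 2 had the widest gaps of all members on the ring scale. Members outside the 50 overlapped with other groups there, among them Kcnmb2 (-0.38), Tmie (-0.06), Tlx3 (-0.10) and Gap43 (-1.40).

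**Figure D5:**
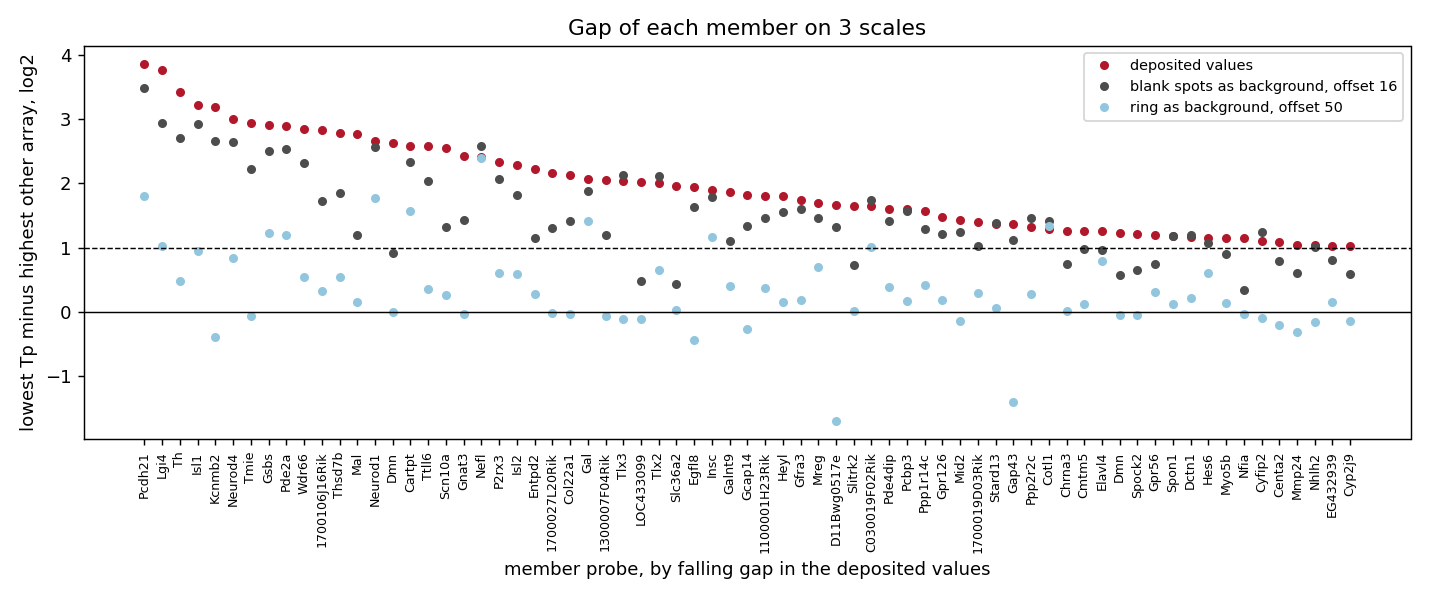
Gap of 69 of the 72 members (lowest Tp array minus highest other array, log2) on the deposited values, with the blank spots as background and with the ring as background, in order of falling gap on the first. The dashed line marks the threshold of 1, which 69, 53 and 11 of those drawn reach on the 3 scales, and the solid line marks 0.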

How the data were processed

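Scanner output deposited by the authors gives the intensity of every spot and of its surrounding ring. A second deposited table holds processed intensity values on a linear scale. Per array these track the spot after removal of the blank level, rescaled, with no entry for spots at or below the blanks. Their formula is not given in the sources used here. R and GeneSpring are the tools the study names, and labels and methods name different RNA kits. Missing entries took the lowest value of their array, and no member had one. Log2 of these values was the scale throughout. The 21854 probes that passed the blank limit (mean plus 2 SD) on 2 or more arrays were tested with limma 3.58.1 (R 4.3.3) on all 9 arrays in 4 groups, which left 5 residual degrees of freedom, and p-values were adjusted over all of them (Benjamini-Hochberg). Gene names are those of the study's table, matched to RefSeq for 70 of the 72 members; 13 names are older ones, and D11Bwg0517e and LOC433099 were not matched.

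The members and the gene lists were chosen with earlier results of these data known. Values per array are given for the 12 members of largest gap, up to 4 per list, named probes within 0.1 of the threshold, genes with 2 probes, and the 3 largest and 3 most negative differences per comparison. Further genes are named with their gap or difference alone. Some genes, 3 members among them, are not reported here and were left out of the figures, but stay in every count. The study calls its samples biological duplicates but does not say whether embryos were pooled, and p-values then reflect only how far these arrays spread, which may be technical. The number of arrays limits the precision. Scans, by the day in the scanner output, numbered 4. Scan 1 held replicate 1 of every group, scan 2 Cp2 and Cn2, scan 3 Tp2 and Tn2, and scan 4 Tp3. Other backgrounds, normalizations, filters, blocks and sets of arrays were run as alternatives.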

Additional observations from a re-analysis of the deposited data

Results flagged for a closer look

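For 27 members every Cp array lay below every Cn array, against 18.1% of tested probes. For 37 others every Cp array lay above every Cn array, against 29.3%. In the trunk every Tp array lay above every Tn array for all members. The rule fixes the direction in the trunk, and the difference between the regions was not tested. Of the 27, 13 passed limma as lower in Cp than in Cn.

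Beyond the named genes, 9 probes without a name among the 347 that the study selected, and 118 probes outside that selection, also had every Tp array at least 1 above every other array. No gene names are at hand for them, and they enter no comparison here.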

How the results depend on the processing

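With the ring as background (offset 50), 13 named probes met the rule and 0 members passed in any direction of the 3 comparisons. Few of all tested probes passed there either, as given above. Members higher in Cp than Cn numbered 6 with the blank spots as background at either offset and 6 with quantile normalization. They numbered 4 among probes with a value on all 9 arrays and 8 with the scan as a block. Over all tested probes the higher calls numbered 542 at offset 16, 493 at offset 50 and 420 with quantile normalization, against 305 in the fit reported above. They were 361 of the 19599 probes with a value on all 9 arrays, and 982 with the scan as a block. Members in Tn over Cn numbered 5 higher and 3 lower with the blank spots at offset 16, and 2 lower at offset 50. Over all tested probes these were 204 higher and 211 lower, and 176 lower, against 181 and 122 in the fit reported above. In Tn over Cp, 7 were higher at offset 50, and 1 was lower at offset 16, at offset 50 and with the scan as a block. Of all tested probes 409 were higher at offset 50, against 805 in the fit reported above. The lower ones numbered 233, 195 and 158 in those 3 settings, against 127. Leaving out 1 array each gave 72 to 83 members. Without 1 Tp array, 2 to 4 members were higher and 10 to 12 lower in Cp over Cn. Over all tested probes these were 233 to 345 and 873 to 1002. In Tn over Cn 3 to 4 were higher and 0 lower, against 149 to 192 and 102 to 139. In Tn over Cp 13 to 14 were higher and 2 lower, against 733 to 846 and 103 to 136. A fit without 1 array of another group left 1 array in it. Comparisons with that group then had fewer calls, among members and among all tested probes. Among the 18 differences at the ends of the 3 comparisons, the sign turned on the ring scale for Nfia in Tn over Cn (0.0089) and Ppp2r2c in Tn over Cp (-0.062). Other members turned sign there too. In Cp over Cn, Galnt9 went from -0.89 to 0.05 and Gcap14 from 0.25 to -0.12. The causes were not tested. Of 342 alternative values of the 18 differences at the ends of the 3 comparisons, 287 kept direction and side of the threshold.

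Whether equal replicate numbers pair samples across groups is not in the labels. With the replicate number as a block, members higher in Cp than Cn were 7, and no other member count moved by over 1.5 times. Over all tested probes the higher calls then numbered 551, against 305 without the block. Among the 18 differences the block changed the limma call of Kcnmb2 in Cp over Cn (adjusted p = 0.0355) and Gnat3 in Tn over Cn (adjusted p = 0.0249). Both then passed. Correlations of same-numbered deviations were 0.08 to 0.42.

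Quantile normalization moved the median of all tested probes in Tn over Cn from 0.16 to 0.004, and in Tn over Cp from 0.06 to -0.07, and differences are to be read against these. Dim spots limit the low values: 13 members were not above the blank limit on every array.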
